A study of Saccharomyces cerevisiae with 12 samples.

Results

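XUTs are long noncoding RNAs of Saccharomyces cerevisiae that were defined by their accumulation when Xrn1, the cytoplasmic 5′-3′ exonuclease, is missing. The XUTs described here are those with a mean density of 0.03 or more over the 12 libraries of the series, where density is the deposited value of a feature: reads per counted nucleotide divided by a size factor of the library. There were 274 of them among 1664 XUTs and 10891 features in all, and all 274 entered the tests. The mean over all libraries chose them, so their level is a description, and the differences between strains are what was tested.

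XUTs are made by RNA polymerase II and exported, and in the cytoplasm they are decapped and digested from the 5′ end by Xrn1. Many run antisense to protein-coding genes, and many carry short reading frames that ribosomes can engage. RNA helicases act at several of these steps in yeast: Dhh1 binds the decapping machinery and represses translation, Ski2 feeds RNA to the cytoplasmic exosome for decay from the 3′ end, Slh1 takes part in the clearance of collided ribosomes, Dbp1 is related to the initiation helicase Ded1, and Ecm32 has a part in translation termination.

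The series measured total RNA, depleted of ribosomal RNA and sequenced with a stranded kit, in strain BY4741 and in 5 deletion strains built in it. The control, WT, had the genotype MATa with his3Δ1, leu2Δ0, met15Δ0 and ura3Δ0, and every deletion strain is labelled with the same markers and 1 gene replaced by kanMX4: ECM32 (ecm32-delta), SLH1 (slh1-delta), SKI2 (ski2-delta), DBP1 (dbp1-delta) or DHH1 (dhh1-delta). All were grown in YPD at 30°C to an OD600 of 0.5, with 2 biological replicates a strain. Whether the 2 replicates of a deletion came from separate transformants is not given in the sources used here. Its question was whether XUTs depend on these helicases.

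The target genes were looked at first. ECM32, SLH1 and DHH1 stood at 0.319%, 0.0283% and 2.17% of their WT density in their own deletion strains. The other pair went against the labels. Relative to WT, SKI2 had 146% of its density in ski2-delta libraries and 0.110% in dbp1-delta libraries, while DBP1 had 3.68% and 150%. These strains are therefore called "labelled ski2-delta" and "labelled dbp1-delta" throughout, and a direction given for them belongs to the libraries so labelled. Libraries held 8.79 to 17.66 M reads. Spike-ins took 1.22% of reads in the first WT library against 1.72 to 2.69% in the other 11. The 6 listed genes of MATa cells were read in every library. MF(ALPHA)1 and MF(ALPHA)2 of MATalpha cells had 22 and 33 reads over all 12 and STE3 had 237, while SAG1 had 3455. LEU2, MET17 (also called MET15) and URA3 had 2, 0 and 6 reads, and HIS3 kept a density of 0.398 to 0.648.

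Most of these XUTs were scarce, and a handful held much of the signal. Their median density was 0.0435 and the highest 1.93, and 30 of the 274 reached 0.1. Counted length ran from 139 to 5368 nucleotides (median 503), against a median of 619 for the 1369 other XUTs for which a length was found. The median XUT had 27.0 reads per library, and 34 had fewer than 10. Of their 3288 values 1 was 0, and none of them lacked reads in both libraries of a strain. Just inside the threshold were XUT0093 (0.03003), XUT0999 (0.03008) and XUT0081 (0.0303), and just outside it XUT0884 (0.02999), XUT1391 (0.0299) and XUT0614 (0.0298).

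The most abundant was XUT1813, with densities of 1.96 and 1.95 in the WT libraries. XUT0109 followed at 0.990 and 1.06, then XUT1511 (0.568 and 0.596), XUT1564 (0.488 and 0.546) and XUT0467 (0.446 and 0.405), a transcript counted over 5302 nucleotides. XUT1498, XUT0466 and XUT0927 completed the 8 highest, between 0.271 and 0.398 in the WT libraries. Levels per length are comparable between these transcripts within the limits of the counted lengths.

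A level of 0.03 was reached by 250 of the 274 in WT, 238 in ecm32-delta, 222 in slh1-delta, 263 in labelled ski2-delta, 267 in labelled dbp1-delta and 128 in dhh1-delta, and by 112 in every strain. The median density over the 274 was 0.0448 in WT, 0.0438 in ecm32-delta, 0.0395 in slh1-delta, 0.0525 in labelled ski2-delta, 0.0593 in labelled dbp1-delta and 0.0279 in dhh1-delta. The strain with the highest mean exceeded that with the lowest by a median of 2.40 times, and by 1.68 times with dhh1-delta left aside, while the 2 replicates of a strain differed by a median of 1.18 times. The first 2 ratios are ranges over 6 and 5 strains and the last over 2 libraries, so they do not compare like with like.

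The share of endogenous reads, into which no size factor enters, had the same strains at both ends as the deposited densities. The top depended on the scaling. With spike-in factors WT had the highest mean for 179 of the 274, or 65.3%, against 63.5% of all features. The first WT library had a spike-in factor of 0.397, against a deposited factor of 0.788. With spike-in factors, the median log2 fold change of the XUTs in labelled dbp1-delta against WT was -0.13, and 0.34 with that library left out. Which strain had the highest mean without that library was not tested. The 274 XUTs took 0.172 and 0.156% of endogenous reads in WT, 0.142% in each ecm32-delta library, 0.160% in each slh1-delta library, 0.154 and 0.159% in labelled ski2-delta, 0.185 and 0.188% in labelled dbp1-delta, and 0.101 and 0.102% in dhh1-delta. Both dhh1-delta libraries were thus below the other 10 and both labelled dbp1-delta libraries above them. Leaving out XUT1813 gave 0.0868 and 0.0877% in dhh1-delta against 0.146 and 0.134% in WT. In bulk RNA, fewer cells that make a transcript and less of it per cell cannot be told apart.

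**Figure D1:**
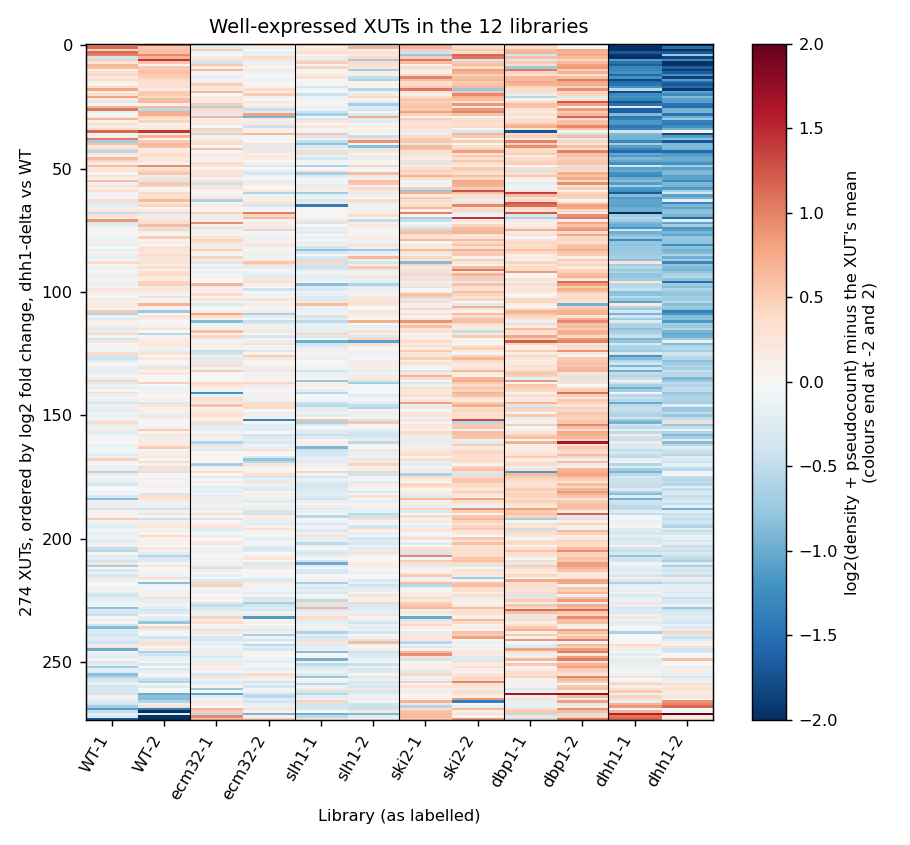
Level of the 274 XUTs (rows, ordered by their log2 fold change in dhh1-delta against WT) in the 12 libraries (columns), as log2(density + pseudocount) minus the mean of the XUT, with colours ending at -2 and 2. The 2 dhh1-delta columns are low over most of the rows, and 230 of the 274 XUTs had a fitted log2 fold change below 0 there.

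Across the 6 strains, limma-trend's moderated F-test called 195 of the 274 XUTs (Benjamini-Hochberg adjusted p under 0.05), against a background of 67.6% of the 9497 features tested. The share among these XUTs was 71.2%. It was 83.6% among the 5327 other features in the same density range, and 39.8% among the 1145 XUTs under 0.03 that were tested. With 2 libraries against 2 no permutation p can fall below 0.333, so all p-values here come from the model, which shares its estimate of spread across features.

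In dhh1-delta these XUTs fell more often than they rose. Of the 274, 124 were called lower and 9 higher than WT, against backgrounds of 24.3% called lower and 13.7% called higher over all features. That is 45.3% and 3.28% of the XUTs. Their median log2 fold change was -0.57, which is -0.38 relative to the median of all features. Called or not, 75 had a fitted log2 fold change of -1 or less and 7 of 1 or more. Of the 274, 146 were under 0.03 in dhh1-delta and reached the mean of 0.03 through other strains. Their low values in dhh1-delta may thus follow in part from the way they were chosen. Without the second WT library fewer were called in each direction. Other noncoding classes lay on the same side: 306 of 1145 less abundant XUTs, 263 of 830 CUTs and 296 of 1103 NUTs were called lower, and 14, 13 and 37 higher (CUTs are transcripts removed by the nuclear exosome, NUTs those that lengthen without the termination factor Nrd1). Protein-coding genes were split, with 1224 lower and 1176 higher of 5650, and the 5327 other features in the same density range gave 1250 lower and 1057 higher.

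XUT0109 was the second most abundant in WT and lost most of its signal. Its densities were 0.990 and 1.06 in WT, 0.778 and 0.724 in ecm32-delta, 0.841 and 0.775 in slh1-delta, 0.984 and 1.01 in labelled ski2-delta, 0.923 and 0.924 in labelled dbp1-delta, and 0.246 and 0.315 in dhh1-delta. The dhh1-delta libraries stood apart below all others. The fold was 3.63 downward, log2 -1.86 (standard error, SE, 0.12, limma-trend adjusted p = 9.19e-07, n = 2 against 2).

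XUT1525 was nearly lost. It had 0.0863 and 0.0947 in WT, 0.0625 to 0.106 in the other 8 libraries outside dhh1-delta, and 0.00927 and 0.00994 in dhh1-delta, 39 reads against 266 in WT. Both dhh1-delta values lay far below the lowest of the other 10. The change was -2.70 on the log2 scale (SE 0.18, adjusted p = 1.02e-06), or 6.51-fold lower. XUT0961, counted over 2885 nucleotides, went from 0.146 and 0.174 in WT to 0.0427 and 0.0424 (-1.79, SE 0.13, adjusted p = 2.77e-06), with no overlap either.

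Some large fitted falls belonged to short XUTs with few reads. XUT0270 (-2.86, SE 0.31), XUT0374 (-2.76, SE 0.31) and XUT1198 (-2.55, SE 0.26) had 4 reads each in dhh1-delta against 38, 34 and 27 in WT. XUT0419 (-2.25), XUT1795 (-2.17) and XUT0463 (-2.16) were also called lower, as was XUT0290 (-2.32), whose call ended when the first dhh1-delta library was left out (adjusted p up to 0.067). XUT0927 (-1.87), XUT1386 (-1.76) and XUT0928 (-1.62) were among the more abundant that fell.

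The 8 most abundant XUTs did not all move alike. Besides XUT0109 and XUT0927, XUT1511 fell from 0.568 and 0.596 to 0.257 and 0.286 (-1.09, SE 0.12) and XUT0467 from 0.446 and 0.405 to 0.201 and 0.192 (-1.09, SE 0.14). XUT1813 went from 1.96 and 1.95 to 1.21 and 1.15 (-0.73, SE 0.10, adjusted p = 0.000285; 0.053 under spike-in scaling). XUT0466 fell by 0.72, and XUT1498 by 0.36, which passed in 1 of the 4 fits without 1 library, and neither passed under spike-in scaling (adjusted p = 0.065 and 0.29). XUT1564 had 0.488 and 0.546 in WT and 0.473 and 0.442 in dhh1-delta, and its -0.17 (SE 0.11, adjusted p = 0.222) did not pass.

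**Figure D2:**
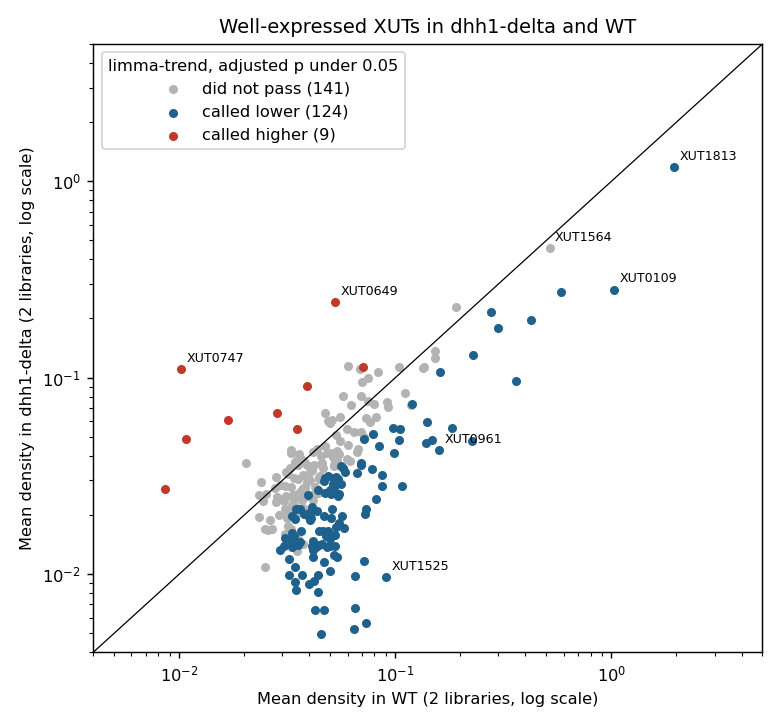
Mean density of each of the 274 XUTs in WT (horizontal) and dhh1-delta (vertical), both on log axes with 2 libraries a strain and a line of equality. The 124 XUTs called lower lie below the line, XUT0109, XUT0961 and XUT1525 among them, the 9 called higher lie above it, and XUT1564 is among the 141 that did not pass.

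XUT0649 went the other way. It had 0.0549 and 0.0504 in WT, 0.0291 to 0.0983 in the other deletion strains, and 0.190 and 0.293 in dhh1-delta, where both libraries were above the other 10. The rise was 4.18-fold, log2 2.06 (SE 0.22, adjusted p = 3.70e-05). XUT0863, with 0.0249 and 0.0316 in WT and 0.0590 and 0.0727 in dhh1-delta, rose by 1.09 (SE 0.20, adjusted p = 0.00143; 0.11 under spike-in scaling). The WT mean of XUT0863 was under 0.03, so its rise follows in part from the way it was chosen. XUT1264 rose by 1.18 (SE 0.29), though its call ended without the first WT or the second dhh1-delta library (adjusted p up to 0.0654), and under spike-in scaling (0.0664). These were the only 3 of the 274 with both dhh1-delta libraries above all others, against a background of 8.43% of features, whereas 143 had both below all others, against 33.5%.

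Set against the mean of the other 4 deletion strains, dhh1-delta gave 181 XUTs called lower and 5 called higher (backgrounds 45.7% and 11%). The WT libraries do not enter these fold changes, but they enter the estimate of spread and so the calls. With protein-coding factors 152 were lower and 8 higher (34.2% and 20.7%), and with spike-in factors 73 and 3 (9.03% and 6.53%). The median was -0.74, or -0.38 relative to all features. With spike-in factors it was -0.51, whether or not the first WT library was in the fit. XUT1525 (-2.56), XUT0109 (-1.62) and XUT1813 (-0.81) were among those lower and XUT0649 (2.27) among those higher. For 199 of the 274, or 72.6%, dhh1-delta was the strain with the lowest mean, against 51.4% of all features and 41.2% of protein-coding genes.

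Against WT, the median fall in dhh1-delta was larger in shorter and in scarcer XUTs, while the share called lower was similar over the bins. In 3 bins of nearly equal size by counted length, from shortest to longest, 40 of 91, 42 of 91 and 42 of 92 XUTs were called lower in dhh1-delta, with medians of -0.70, -0.59 and -0.47. In 3 such bins of mean density, from lowest to highest, 41 of 91, 44 of 91 and 39 of 92 were called lower, with medians of -0.70, -0.60 and -0.41. Against the other 4 deletion strains the share did change with length, at 54 of 91, 57 of 91 and 70 of 92 (background 45.7%). The medians there were -0.84, -0.76 and -0.67, so the median fall was again larger in shorter XUTs. The differences between bins were not tested. Of the 24 XUTs under 0.03 in WT, 1 was called lower and 5 higher. Those 24 reached the mean of 0.03 through other strains, so this split follows from the way they were chosen.

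The decay and helicase machinery was examined beside the XUTs. Of 30 such genes listed, 6 were called higher and 8 lower in dhh1-delta, where 20.8% and 21.7% of all protein-coding genes were, so the list as a whole was near the background. With protein-coding factors 9 of the 30 were higher and 9 lower, against 18.2% and 28.9% of all features. In ecm32-delta, slh1-delta, labelled ski2-delta and labelled dbp1-delta 0, 0, 25 and 7 were called higher, against 60.1% and 24.7% of all protein-coding genes in the last 2 strains. With protein-coding factors 0 were higher in any of the 4, and 1 was called lower in each, the gene without its reads. The density of XRN1, which encodes the nuclease that defines XUTs, was 1.54 and 1.74 in WT and 1.11 and 1.06 in dhh1-delta (-0.60, SE 0.12, adjusted p = 0.00254). DCP2, the decapping enzyme, fell by 0.90, and NAM7 and NMD2, factors of nonsense-mediated decay, fell by 0.75 and 0.82. MTR4 and RRP6, nuclear exosome factors, fell by 0.69 and 0.42. DHH1 and ECM32 were the other 2 called lower. DCP1 (0.47), PAT1 (0.93), EDC1 (3.21) and EDC2 (1.17), which act with decapping, rose, as did SKI8 (0.51) of the Ski complex and the deadenylase CCR4 (0.41). Their part in the levels of XUTs was not tested.

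The libraries labelled dbp1-delta, which lacked SKI2 reads, held the highest levels of many of these XUTs. Against WT 49 were called higher and 2 lower, with backgrounds of 17.2% and 0.411%. Of the 24 XUTs under 0.03 in WT 8 were called higher, and of the other 250 it was 41. Over all 274 the shares were 17.9% and 0.73%, so the share called higher was near the background. It rested on the deposited scaling: 4 were higher and 1 lower with factors from protein-coding genes (backgrounds 0.295% and 0.421%), and 3 and 2 with spike-in factors (0.326% and 0.369%). Without the first WT library 7 were called in all, and without the second labelled dbp1-delta library 5. The median was 0.37, or 0.04 relative to all features.

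XUT0893 showed the largest change in these libraries that held in every one of those fits. It stood at 0.0866 and 0.0547 in WT, 0.0529 to 0.138 in the 8 libraries of the other strains, and 0.371 and 0.387 in labelled dbp1-delta. No other library came near these 2 values. The rise was 5.19-fold, log2 2.38 (SE 0.24, adjusted p = 0.000880), and 1.93 (SE 0.19) over the mean of the other 4 deletion strains.

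XUT1641, counted over 2630 nucleotides, had 0.0448 and 0.0422 in WT, 0.0407 to 0.0691 in the other strains and 0.128 and 0.130 in labelled dbp1-delta. It rose by 1.46 (SE 0.17, adjusted p = 0.00214) over WT and by 1.35 (SE 0.14) over the other deletions, but the rise over WT did not pass under spike-in scaling (0.95, adjusted p = 0.65). XUT0768, counted over 4406 nucleotides, had 0.0336 and 0.0353 in WT and 0.0790 and 0.0903 in labelled dbp1-delta (1.18, SE 0.18; 0.67 and adjusted p = 0.99 under spike-in scaling). Its call against WT ended without the first WT or the second labelled dbp1-delta library. The rise of 1.13 (SE 0.14) over the other 4 deletions passed whichever library was left out. It did not pass under spike-in scaling (0.99, adjusted p = 0.171). The spread behind that p-value takes in the WT libraries, and the change was also 0.99 with the first WT library left out.

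A comparison of labelled dbp1-delta with the other 4 deletion strains, added after these values were seen, gave 117 called higher and 1 lower (backgrounds 23.1% and 0.484%). The median was 0.50, or 0.22 relative to all features. With protein-coding factors 41 were higher and 1 lower, against 4.21% and 4.46% of all features, and with spike-in factors 4 and 0, against 0.379% and 0.116%. The 4 strains include dhh1-delta, where most of these XUTs were low. Here too the WT libraries enter the estimate of spread and so the calls. Without the second labelled dbp1-delta library 7 were called in all. As deposited, both labelled dbp1-delta libraries were above the other 10 in 51 of the 274, against 6.45% of all features. Labelled dbp1-delta had the highest mean for 57.3% of the 274 as deposited, 34.3% with protein-coding factors and 21.2% with spike-in factors. Over all features these shares were 30.1%, 18.6% and 9.02%. The 1 called lower, XUT0649, was 1 of the 3 above all others in dhh1-delta.

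The 49 higher calls of labelled dbp1-delta against WT, most of which the other scalings did not give, were spread unevenly over length and level. In the bin of the longest, 30 of 92 were called higher and 0 lower, and in that of the shortest 7 of 91 were higher and 2 lower. By density the highest bin gave 31 of 92 and the lowest 6 of 91. Reads per XUT rise with both length and density, and neither the difference between bins nor the part of counting error in it was tested.

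**Figure D3:**
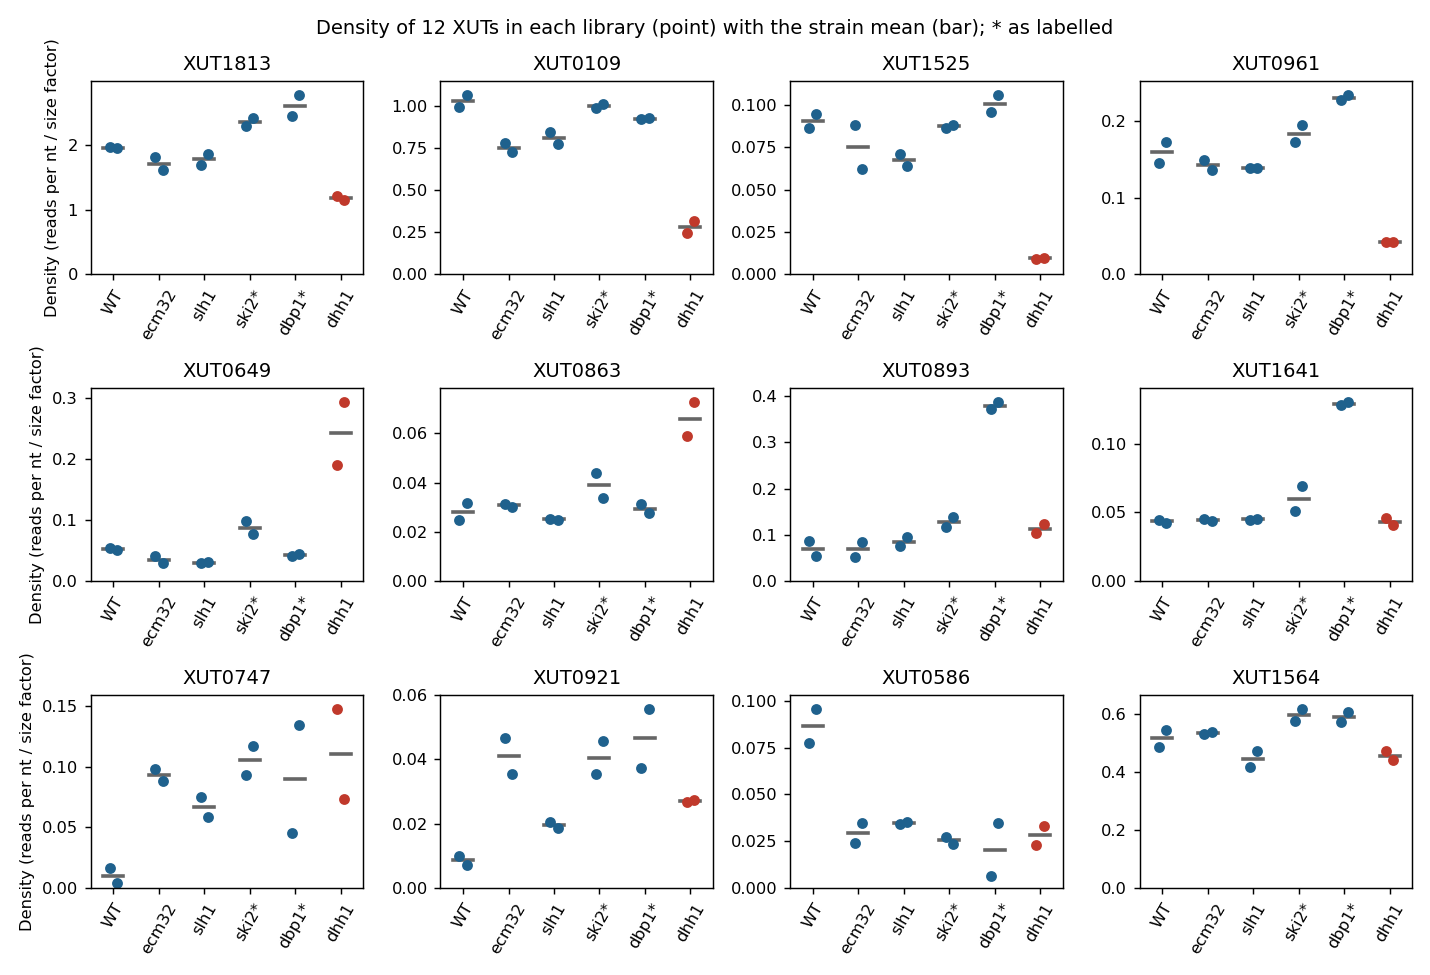
Density of 12 XUTs in each of the 12 libraries (points), with the mean of each strain as a bar, dhh1-delta in red, and axes starting at 0. The upper row with XUT1813, XUT0109, XUT1525 and XUT0961 is lowest in dhh1-delta, XUT0649 and XUT0863 are highest there, XUT0893 and XUT1641 are highest in labelled dbp1-delta, and XUT0747, XUT0921 and XUT0586 differ mainly between WT and the deletions.

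In labelled ski2-delta, which lacked most DBP1 reads, 37 XUTs were called higher and 5 lower than WT, where the backgrounds were 39.3% and 0.737%. Of the 24 XUTs under 0.03 in WT, which reached a mean of 0.03 through other strains, 12 were called higher, and of the other 250 it was 25. The share called higher over all 274 was 13.5%, below the background, and the median of 0.24 was -0.15 relative to all features. With protein-coding factors 2 were higher and 1 lower (backgrounds 0.284% and 0.548%), and with spike-in factors 1 and 6 (0.168% and 1.04%). Without the first WT library 5 were called in all and without the second labelled ski2-delta library 1.

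XUT1746 was called higher in labelled ski2-delta, with 0.0856 and 0.0644 in WT and 0.143 and 0.206 there (1.16, SE 0.22, adjusted p = 0.0104), both above both WT libraries. Its change was 0.74 and did not pass with protein-coding factors (adjusted p = 0.16). XUT1221 (1.15), XUT1571 (1.09) and XUT0308 (1.04) were also called higher, and their adjusted p under protein-coding scaling was 0.27 to 0.33. Of the 10 XUTs with a fitted log2 fold change of 1 or more here, 7 were under 0.03 in WT. Rises of this size can thus follow in part from the way the XUTs were chosen. XUT1198 (-0.86), XUT0579 (-0.74), XUT1337 (-0.70) and XUT0704 (-0.62) were lower, beside XUT0586, and none of these 4 passed in more than 1 of the 4 fits without 1 library.

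ecm32-delta and slh1-delta left nearly all of these XUTs without a call. In ecm32-delta 1 was higher and 0 lower (backgrounds 0.0316% and 0.0421%), with 23 of the 274 at an unadjusted p under 0.05, beside 825 of all 9497 features, and 0 called by voom. In slh1-delta 0 were higher and 0 lower (backgrounds 0% and 0.0105%), with 31 at an unadjusted p under 0.05, beside 668 of all features, and 1 called by voom. The medians were -0.03 and -0.13, or -0.11 and -0.04 relative to all features. Quartiles of the log2 fold change ran from -0.23 to 0.16 in ecm32-delta and from -0.30 to 0.06 in slh1-delta.

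**Figure D4:**
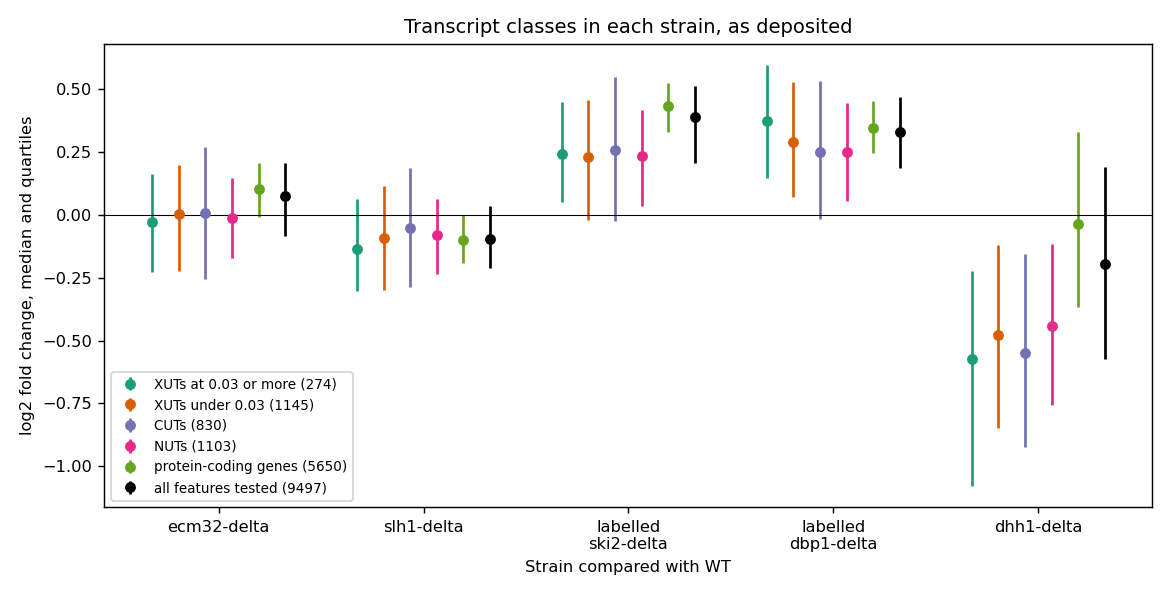
Median log2 fold change against WT (points) with quartiles (bars) for the 274 XUTs, less abundant XUTs, CUTs, NUTs, protein-coding genes and all features, in each deletion strain as deposited. The noncoding classes stand lower than protein-coding genes in dhh1-delta, where the XUTs had a median of -0.57 and coding genes -0.04.

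A few XUTs had WT levels outside those of the deletion strains. XUT0921, XUT0747, XUT1540 and XUT0462 had WT means under 0.03 and reached the mean of 0.03 through the deletion libraries. Their rises over WT thus follow in part from the way they were chosen and are given as values. The calls named for them here and below share that limit and are no support for the rises. XUT0921, the 1 XUT called in ecm32-delta, had densities of 0.00995 and 0.00723 in WT, 0.0466 and 0.0353 in ecm32-delta, 0.0207 and 0.0187 in slh1-delta, 0.0353 and 0.0457 in labelled ski2-delta, 0.0374 and 0.0556 in labelled dbp1-delta, and 0.0268 and 0.0273 in dhh1-delta. Both WT libraries were below the other 10. The changes were 1.75, 0.86, 1.74, 1.90 and 1.24 in that order, of which that in slh1-delta did not pass. The call in ecm32-delta did not hold in any fit without 1 library, and the other 3 calls did not pass under spike-in scaling (adjusted p = 0.237, 0.0530 and 0.0505). The WT value rests on 4 reads, and these comparisons share their WT libraries.

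XUT0747 had 0.0164 and 0.00398 in WT and 0.0458 to 0.148 in the other 10 libraries. It was called higher in labelled ski2-delta, labelled dbp1-delta and dhh1-delta (2.97, 2.59 and 2.97, SE 0.47), again over 4 WT reads. The calls in labelled ski2-delta and labelled dbp1-delta ended without the second library of the labelled strain. XUT1540 was called in the same 3 strains as XUT0747, at 2.00, 2.21 and 1.96. Its WT libraries differed widely, 0.0314 and 0.00228, and each of its 3 calls ended without at least 1 library (adjusted p up to 0.2). In XUT0462, called in labelled ski2-delta and dhh1-delta (1.81 and 2.14, SE 0.60), the second WT library had the single 0 among all values, and neither call held without that library.

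XUT0586 was the reverse, with 0.0774 and 0.0956 in WT and 0.00647 to 0.0352 in the other 10 libraries. It was called lower in labelled ski2-delta (-1.57), labelled dbp1-delta (-2.09) and dhh1-delta (-1.47), each with SE 0.43, and each call ended without at least 1 library (adjusted p up to 0.11). XUT1021 was the other called lower in labelled dbp1-delta (-0.98, SE 0.25). It did not pass with protein-coding factors (limma-trend adjusted p = 0.0526) or by voom (adjusted p = 0.0902). Its call also ended without the first WT library or either labelled dbp1-delta library. Both WT libraries were above all others for 7 of the 274 and below all others for 4, against 0.537% and 1.9% of all features. With a single pair of WT cultures, a difference shared by all deletions cannot be told apart from a difference of those cultures.

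**Figure D5:**
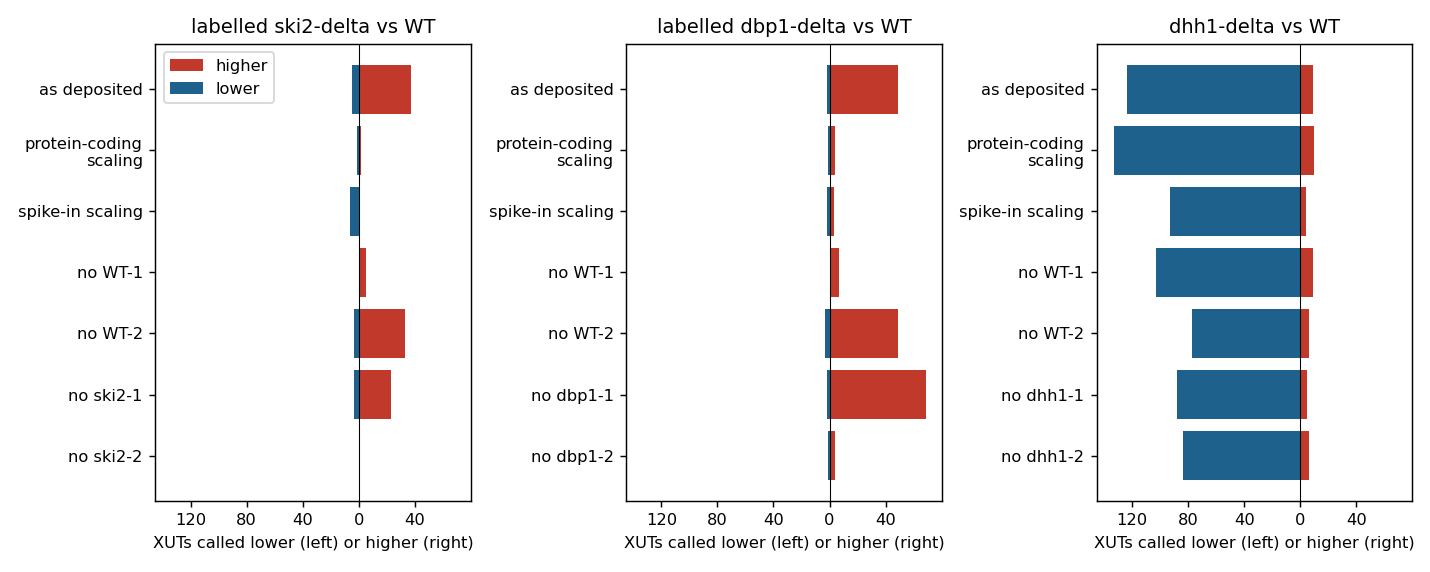
Number of the 274 XUTs called higher (right, red) and lower (left, blue) against WT by limma-trend, as deposited, with 2 other scalings and with each library of the comparison left out in turn. Calls in labelled ski2-delta and labelled dbp1-delta fall from 42 and 51 to between 1 and 7 in several settings, whereas dhh1-delta has between 77 and 133 lower calls in the settings drawn.

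The scaling sets the zero of each comparison. As deposited, the median of all features was 0.39 and 0.33 in labelled ski2-delta and labelled dbp1-delta, -0.20 in dhh1-delta, and 0.08 and -0.09 in ecm32-delta and slh1-delta. In dhh1-delta 10 XUTs were higher and 133 lower with protein-coding factors (backgrounds 18.2% and 28.9%), and 4 and 93 with spike-in factors (3.02% and 13.6%). With spike-in factors and the first WT library left out, the median in dhh1-delta was -0.29 for the XUTs and 0.09 for all features. Of the 124 lower calls 61 held in each of the 4 fits without 1 library, and of the 9 higher calls 4 did.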

How the data were processed

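The deposited table gives, for each feature and library, a normalized density that the authors computed, a signal in reads per nucleotide. Its columns of strain means were not used. Per the submitters' processing notes, build R64 and the tools HISAT2 2.2.0, featureCounts 2.0.0, Trim Galore and DESeq2 were used, with no role or order given. Whether counting used strand is not given in the sources used here, so reads of a XUT and of a gene on the other strand may not be told apart.

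Reads were recovered as whole numbers (tolerance 0.0001) for 10767 of 10767 features with reads, by a search for the shortest counted length, so lengths and reads can be understated. The deposited scaling tracks snoRNAs. In R 4.3.3 with limma 3.58.1, a limma-trend model was fitted to log2(density + 0.00508), the constant being the 10th percentile of values above 0, over 9497 features and 12 libraries (6 residual degrees of freedom), with Benjamini-Hochberg adjustment over all of them at 0.05. Fold changes are on this scale and understate those of scarce XUTs.

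Depth per library was 8.79 to 17.66 M reads. Over these XUTs replicates differed by 1.06 to 2.14 times the variance from counting alone. Alternatives were other scalings, pseudocounts, no filter, voom on recovered reads, a replicate block, each library left out and a level threshold of 0.06. Named XUTs are the 8 of highest density, the 8 of smallest F-test p, up to 8 higher and 8 lower per comparison with both libraries beyond both WT libraries, and the 3 on each side of the threshold. The XUTs, the gene lists and the tests were chosen with earlier results of these data known. Genome positions and sequences of XUTs were not used here.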

Additional observations from a re-analysis of the deposited data

How the results depend on the processing

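Depth limits these values, as the median XUT had 27.0 reads per library. With 2 libraries a strain, 1 library can decide a count of calls. Counts below are XUTs called in either direction. Halving or doubling the pseudocount and dropping the filter kept every count within 1.5 times, and so did the replicate block. Replicate numbers did not pair the samples (correlations of replicate differences from -0.078 to 0.072 over 15 pairs of strains). With the replicate block the counts were 1 in ecm32-delta, 0 in slh1-delta, 43 in labelled ski2-delta, 54 in labelled dbp1-delta, 135 in dhh1-delta and 198 across strains.

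Scaling moved several counts. With protein-coding factors, labelled ski2-delta gave 3 calls against 42, labelled dbp1-delta 5 against 51, and labelled dbp1-delta against the other 4 deletions 42 against 118. With spike-in factors the counts were 5 in ecm32-delta, 4 in slh1-delta, 7 in labelled ski2-delta, 5 in labelled dbp1-delta, 76 for dhh1-delta and 4 for labelled dbp1-delta against the other 4 deletions, and 71 across strains. Spike-in scaling without the first WT library was added after the data were seen, and there the counts were 4, 2, 5 and 6 in those 4 strains, 75 in dhh1-delta and 25 for labelled dbp1-delta against the other 4 deletions. There the fold change of XUT1498 in dhh1-delta turned to 0.0073 and that of XUT1564 to 0.149, neither past the threshold. Voom called 0 in ecm32-delta and 1 in slh1-delta. A threshold of 0.06 gave 0, 14, 24 and 36 in ecm32-delta, labelled ski2-delta, labelled dbp1-delta and dhh1-delta, 51 and 40 for dhh1-delta and labelled dbp1-delta against the other 4 deletions, and 58 across strains, since fewer XUTs remain.

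Leaving out 1 library gave 0 to 1 calls in ecm32-delta and slh1-delta, 1 to 36 in labelled ski2-delta, 5 to 71 in labelled dbp1-delta, 83 to 112 in dhh1-delta (83 without the second WT library), 135 to 191 and 7 to 126 for dhh1-delta and labelled dbp1-delta against the other 4 deletions, and 148 to 207 across strains. Medians relative to all features ran from -0.11 to -0.0879 in ecm32-delta, -0.06 to -0.00066 in slh1-delta, -0.16 to -0.0997 in labelled ski2-delta, 0.0147 to 0.0771 in labelled dbp1-delta, -0.41 to -0.35 in dhh1-delta and -0.41 to -0.29 for dhh1-delta against the other 4 deletions. Medians also moved to 0.0160 in labelled dbp1-delta (spike-in scaling without the first WT library), to -0.43 in dhh1-delta (voom), and at the threshold of 0.06 to -0.0820, -0.0940, 0.133 and -0.30 in ecm32-delta, labelled ski2-delta, labelled dbp1-delta and dhh1-delta. Except where fewer XUTs or libraries enter, the cause was not tested. Of 612 values of 39 named XUTs under alternatives, 487 kept their side of the threshold, 123 lost it and 2 changed sign.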

Other observations

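In the order of the deposited table, XUT1813 stands in the first row, XUT0927 in row 5 and XUT0928 in row 6, among the 4 features of the 2-micron plasmid, a multicopy circle of yeast nuclei. The plasmid features R0010W, R0020C, R0030W and R0040C had log2 fold changes of -2.11, -0.96, -1.97 and -0.52 in dhh1-delta (SE 0.18, 0.11, 0.14 and 0.13; limma-trend, all with adjusted p under 0.05), beside -0.73, -1.87 and -1.62 for the 3 XUTs. The table gives no positions, so where these XUTs lie was not examined.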
